A study of Rattus norvegicus with 18 samples.

Results

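Classic hypoxia target genes are genes that cells of many kinds express more strongly when oxygen is short. Of these, 10 were followed in rat soleus muscle: P4ha1, P4ha2, Ndrg1, Ankrd37, Car9, Kdm3a, Ak4, Higd1a, Plod2 and Slc16a3. They were chosen by name, and every probe set annotated to exactly 1 of these symbols was taken. This gave 14 of the 31042 probe sets tested, and 10 of the 14217 genes with such a probe set. For genes with more than 1 probe set, the brightest on average stands for the gene. The other probe set of P4ha2, Ndrg1, Ak4 and Higd1a is described beside it.

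The arrays measured messenger RNA in the soleus, a calf muscle rich in slow fibres, of 9 male rats. In the 5 SNX rats, 5/6 nephrectomy had left a small part of the kidney tissue, a surgical model of chronic kidney disease. The 4 sham rats had been sham operated. In every rat the right femoral artery was tied off and cut out 8 weeks after the kidney surgery, and both soleus muscles were taken 24 hours later. The 4 groups are therefore sham left (n = 4), sham right (n = 4), SNX left (n = 5) and SNX right (n = 5), and the left muscle of the same rat is the unligated control. The left limb had no operation of its own that the labels record, and strain and age are not stated there. The source field of the labels calls every sham array nonischemic and every SNX array ischemic, which goes against the design text, so groups are named by operation and side. The numbers in the sample titles were read as rats. Values are log2, so that a difference of 1 is a factor of 2.

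Array medians lay between 3.22 and 3.37, and pairwise correlations of the arrays between 0.968 and 0.997. The least like the rest were 2 right muscle arrays, from sham rat 17 and from SNX rat 49. Their macrophage list means (14 marker genes) were 8.97 and 8.28, against 5.04 to 7.14 on the other 16 arrays, and the calls over all rats below are also given without them. Fast fibre markers were bright on every array (list means 14.46 to 14.93), and the slow fibre list mean ranged from 10.77 on the SNX right array of rat 20 to 14.77. Slow fibre markers were thus present on every array, at levels that varied between arrays. The fast myosin gene Myh4 averaged 15.34 over the arrays and the slow myosin gene Myh7 14.88. The fast gene thus read above the slow one in a muscle described as rich in slow fibres. The labels name the tissue as soleus, and whether the samples held other muscle was not tested. Whether the fibre mix of the samples differed between limbs, and its part in the differences below, was not tested.

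Cells sense oxygen through the hypoxia-inducible factors (HIFs), pairs of an oxygen-labile alpha subunit and a stable beta subunit. With enough oxygen, prolyl hydroxylases of the Egln family mark the alpha subunit, and the ubiquitin ligase subunit Vhl leads it to degradation. When oxygen falls, the alpha subunit persists and the pair binds a short DNA element, with the core ACGTG or GCGTG, near its target genes. The 10 genes stand for different arms of that programme. P4ha1, P4ha2 and Plod2 encode enzymes that hydroxylate collagen chains and need oxygen to do so. Slc16a3 encodes the lactate exporter MCT4 and Car9 an acid-handling carbonic anhydrase of the cell surface. Ak4 and Higd1a encode mitochondrial proteins, Kdm3a encodes a histone demethylase, Ndrg1 a stress-response protein and Ankrd37 a small ankyrin repeat protein.

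Promoter windows from RefSeq (GRCr8), from 250 bases before to 50 bases after the annotated start, were searched for ACGTG and GCGTG on both strands. On the printed strand a match to the opposite strand reads CACGT or CACGC, and CACGTG is counted on both strands. There were 10 windows for 9 of the members, all but Ndrg1, with Kdm3a having 2. Of these 9 members, 8 held at least 1 match. P4ha2 and Ankrd37 held 5 matches each, Plod2 4, P4ha1 and Higd1a 3 each, Car9 and Ak4 1 each, Kdm3a 0 in one window and 1 in the other, and Slc16a3 0. Of all 33469 promoter windows of this length, 41.6% held at least 1 match, 19.2% at least 2 and 8.15% at least 3. The members' windows were also rich in G and C, at 54.3% to 73.7% against a median of 51.7%, and its part in the number of matches was not tested. A match describes the letters only. The windows of the 3 collagen hydroxylase genes are shown because P4ha1 differed in direction from P4ha2 and Plod2 in the muscle, and that of Slc16a3 because it had no match and ran opposite to P4ha2 and Plod2 in the right minus left differences of the rats. Capitals mark the matches.
P4ha1 (plus strand, chr20:27844796-27845095): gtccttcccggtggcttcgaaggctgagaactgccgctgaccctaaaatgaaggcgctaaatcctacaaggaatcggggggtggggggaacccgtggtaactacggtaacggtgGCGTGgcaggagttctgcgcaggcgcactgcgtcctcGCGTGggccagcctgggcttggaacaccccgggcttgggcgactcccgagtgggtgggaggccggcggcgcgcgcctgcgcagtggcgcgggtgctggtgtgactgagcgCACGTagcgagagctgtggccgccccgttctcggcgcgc
P4ha2 (plus strand, chr10:38743644-38743943): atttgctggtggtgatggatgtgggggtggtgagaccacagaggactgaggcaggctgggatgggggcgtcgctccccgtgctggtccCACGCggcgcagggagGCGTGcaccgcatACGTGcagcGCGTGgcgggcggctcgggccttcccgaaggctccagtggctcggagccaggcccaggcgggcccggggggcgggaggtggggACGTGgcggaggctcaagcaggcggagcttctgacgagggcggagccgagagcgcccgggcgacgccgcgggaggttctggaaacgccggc
Plod2 (plus strand, chr8:101964068-101964367): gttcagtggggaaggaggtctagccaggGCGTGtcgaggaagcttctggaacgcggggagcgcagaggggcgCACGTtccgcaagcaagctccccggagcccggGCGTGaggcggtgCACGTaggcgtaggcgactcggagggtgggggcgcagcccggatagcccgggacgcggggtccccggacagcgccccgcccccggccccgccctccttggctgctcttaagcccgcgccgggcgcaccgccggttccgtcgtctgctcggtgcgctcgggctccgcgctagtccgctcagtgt
Slc16a3 (plus strand, chr10:106712078-106712377): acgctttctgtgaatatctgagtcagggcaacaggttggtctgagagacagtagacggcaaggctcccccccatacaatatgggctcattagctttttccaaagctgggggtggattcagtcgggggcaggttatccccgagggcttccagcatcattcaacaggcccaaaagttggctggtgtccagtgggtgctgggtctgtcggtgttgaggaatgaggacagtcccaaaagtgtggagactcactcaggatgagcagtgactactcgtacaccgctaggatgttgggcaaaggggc
In P4ha1 the matches begin 136 and 99 bases before the start and 12 bases after it. In P4ha2 they begin 162, 146, 133, 124 and 41 bases before it, and in Plod2 222, 178, 146 and 133 bases before it.

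The first question was whether the members were higher in the ligated right muscle than in the unligated left muscle 24 hours after ligation. Averaged over the sham and SNX rats, 6 of the 10 were higher on the right and 4 lower, with a median log2 difference of 0.18. Of all genes, 40.2% were higher on the right, with a median of -0.01. None of the 10 passed limma's test at an adjusted p of 0.05, where 2.55% of all probe sets did, and 3 had an unadjusted p under 0.05 (P4ha1, Ndrg1 and Plod2), where 18.9% did. When the fit treated the rat as a random block, using that both muscles came from 1 animal, 2 passed, P4ha1 as lower and Ndrg1 as higher, where 9.05% of all probe sets did. In sham rats alone 0 passed limma's test without the block, where 0.148% of probe sets did, and 1 with it (P4ha1), where 1.8% did, while 1 had an unadjusted p under 0.05, where 12.3% did. In SNX rats alone 0 passed either way, where 0.0451% and 0.319% of probe sets did, and 1 (Ndrg1) had an unadjusted p under 0.05, where 7.92% did.

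**Figure D1:**
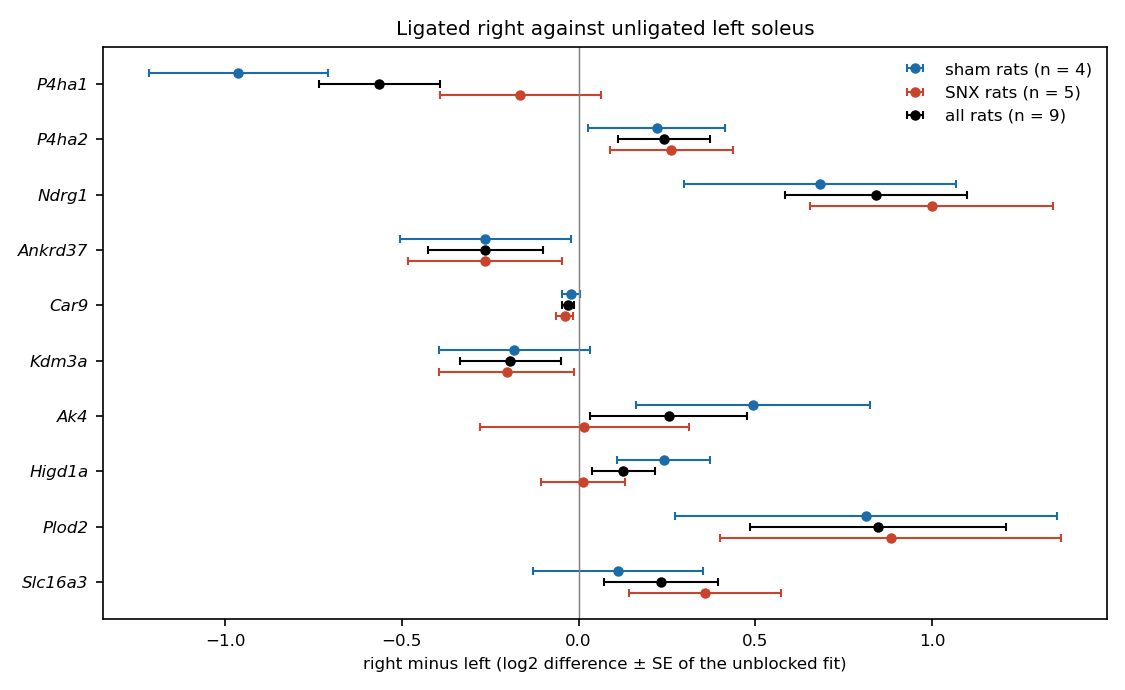
Right minus left log2 difference of each member (horizontal axis) in 4 sham rats (blue), 5 SNX rats (red) and over all 9 rats (black), with the standard error of the unblocked limma fit as bars. P4ha1 lies at -0.96 in sham rats and -0.16 in SNX rats, Ndrg1 and Plod2 lie to the right of 0 in both, and Car9 lies close to 0.

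P4ha1 (probe set 1370954_at) encodes the main catalytic subunit of collagen prolyl 4-hydroxylase, and it was lower in the ligated muscle, by a larger margin in sham than in SNX rats (the test of that difference, given below, did not pass). The sham left arrays of rats 11, 13, 15 and 17 held 10.66, 10.78, 10.96 and 11.03. The sham right arrays of the same rats held 9.45, 9.79, 9.76 and 10.56. Every sham rat was thus lower on the right, and the groups did not overlap, as was so, in that direction, for 5.4% of all probe sets. The difference in sham rats was -0.96 with a standard error (SE) of 0.25, a 1.95-fold lower level, at a limma adjusted p of 0.140 without the block, 0.0281 with the rat as a random block and 0.0433 with the rat as a fixed term.

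In SNX rats the unligated muscle itself read lower for P4ha1 than in sham rats. The SNX left arrays of rats 12, 18, 20, 37 and 49 held 9.95, 9.49, 10.60, 10.30 and 10.03, and their right arrays 10.11, 9.41, 10.33, 9.79 and 9.92. These groups overlap, with 4 of 5 rats lower on the right, and the difference was -0.16 (SE 0.23, limma adjusted p = 0.915). Over all rats the right muscle read lower in 8 of 9, by -0.56 (SE 0.17, limma adjusted p = 0.0855, or 0.0193 with the random block and 0.0284 with the fixed term).

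The blocked call for P4ha1 moved with single rats. In sham rats it ended without sham rat 11, 13 or 15 (adjusted p = 0.142, 0.104 and 0.0894) and without SNX rat 12 (0.0517). Over all rats it ended without SNX rat 37 (0.0615) and sham rats 11 and 13 (0.0596 and 0.0517). Without the right arrays of sham rat 17 and SNX rat 49 the blocked sham difference was larger, at -1.17 (adjusted p = 0.0072), and that over all rats was -0.67 (0.0077).

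P4ha2 (1372610_at), the other catalytic subunit of the same enzyme family, did not share this direction. Its sham left arrays lay between 7.71 and 8.04 and its sham right arrays between 7.78 and 8.39. The SNX left arrays lay between 6.86 and 7.78 and the SNX right arrays between 7.43 and 8.01. These ranges overlap for both kinds of rat, and P4ha2 was higher on the right in 6 of 9 rats. The difference over all rats was 0.24 (SE 0.13, limma adjusted p = 0.324). The second probe set of P4ha2 (1375332_at) read between 2.15 and 2.55 on every array, below the array medians, and gave no usable difference.

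Plod2 (1372897_at), which hydroxylates lysines of collagen and so shapes its cross-links, had the largest right minus left difference of the members over all rats. The sham left arrays of rats 11, 13, 15 and 17 held 6.34, 7.72, 6.97 and 6.49, and the sham right arrays 7.66, 8.11, 6.61 and 8.39. The SNX left arrays of rats 12, 18, 20, 37 and 49 held 6.95, 5.48, 5.48, 5.84 and 5.97, and the SNX right arrays 6.46, 6.48, 5.64, 7.13 and 8.43. Sham rat 15 and SNX rat 12 were lower on the right and the other 7 rats higher, and left and right arrays overlap. The difference over all rats was 0.85 (SE 0.36), a 1.80-fold higher level, and did not pass (limma adjusted p = 0.220, or 0.102 with the block). The 2 highest arrays are the right arrays that stood apart, and without them the difference was 0.53 (adjusted p = 0.507).

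Ndrg1 (1371360_at), a cytoplasmic protein gene switched on by hypoxia, differentiation and other stresses, was higher in the ligated muscle of 8 of 9 rats. The sham left arrays of rats 11, 13, 15 and 17 held 8.45, 9.18, 7.79 and 8.09, and the sham right arrays 8.12, 9.34, 8.44 and 10.34. The sham groups overlap, and rat 17 alone was more than 1 log2 unit higher on the right. The SNX left arrays of rats 12, 18, 20, 37 and 49 held 7.16, 7.44, 7.44, 7.02 and 7.0, and the SNX right arrays 8.36, 7.87, 8.36, 8.13 and 8.34. All 5 SNX rats were higher on the right and the SNX groups did not overlap, as was so, in that direction, for 1.38% of all probe sets.

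The Ndrg1 difference was 0.68 (SE 0.38, limma adjusted p = 0.482) in sham rats and 0.999 (SE 0.34, adjusted p = 0.466, or 0.173 with the block) in SNX rats. Over all rats it was 0.84 (SE 0.26), a 1.79-fold higher level, with a limma adjusted p of 0.0896 without the block, 0.0316 with the rat as a random block and 0.0919 with the rat as a fixed term. The blocked call ended without SNX rat 12, 18, 37 or 49 or sham rat 17 (adjusted p = 0.0645, 0.0559, 0.0810, 0.0792 and 0.0725). Without the right arrays of sham rat 17 and SNX rat 49 the blocked difference was 0.58 (adjusted p = 0.0541), and the sham difference without the block 0.25. The second probe set of Ndrg1 (1391458_at) read between 1.81 and 1.88 on 17 arrays and 2.24 on the right array of sham rat 17.

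Markers of several other cell types were higher in the ligated muscles on average. All 14 macrophage markers were higher on the right over all rats, with a median difference of 1.22, and 2 of them passed (9 with the block). Their list mean ranged from 5.65 to 6.55 on sham left arrays, 6.31 to 8.97 on sham right, 5.04 to 5.62 on SNX left and 5.46 to 8.28 on SNX right. Of the 10 fibroblast markers, 9 were higher on the right (median 0.49), with 0 past the test and 1 with the block. Of the 8 endothelial markers, 6 were higher (median 0.31), with 2 past the test as higher, and with the block 4 higher and 1 lower. Of the 5 Schwann cell markers, 4 were higher (median 0.76), with 5 of 5 higher in SNX rats (median 1.58), and 0 passed. By rat, the Schwann cell list mean was higher on the right in 2 of 4 sham and 4 of 5 SNX rats. In SNX rat 20 the macrophage (-0.16) and fibroblast (-0.08) list means were lower on the right. Of the 6 adipocyte markers, 2 were higher and 4 lower, with 0 past the test. The 5 neutrophil markers divided into 3 higher and 2 lower, again with 0 past it. Of the 10 pericyte and smooth muscle markers, 4 were higher and 6 lower, with 2 past the test as higher and 1 as lower. Their part in the Ndrg1 and Plod2 differences was not tested, and in whole muscle more cells of a type cannot be told apart from more RNA per cell.

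**Figure D2:**
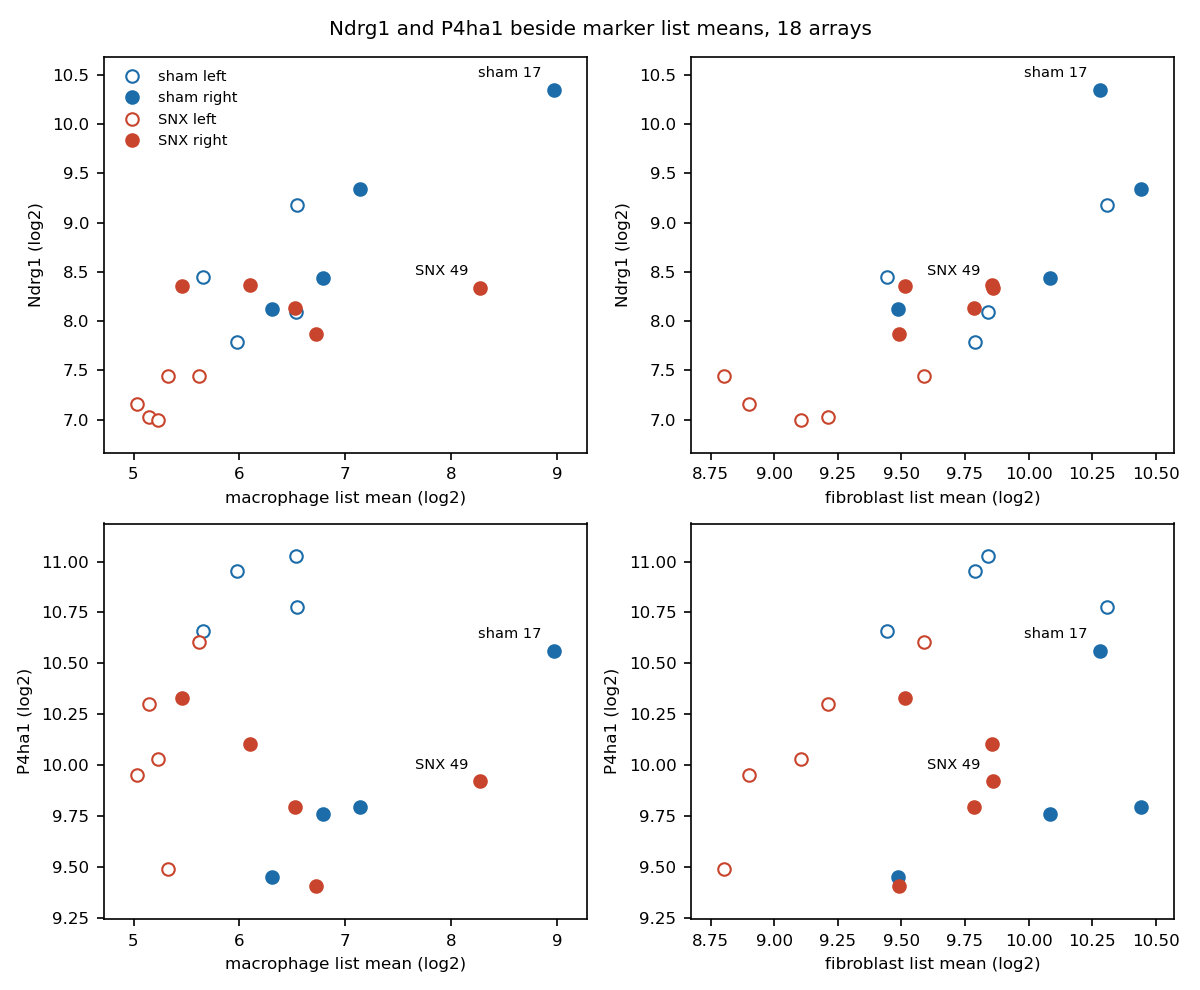
Level of Ndrg1 (top) and P4ha1 (bottom) on each of 18 arrays against the mean of the macrophage list (left) and the fibroblast list (right), all log2; sham blue, SNX red, open circles left muscle, filled circles right muscle. The right arrays of sham rat 17 and SNX rat 49 lie at macrophage means of 8.97 and 8.28, and the SNX left arrays lie at the lowest Ndrg1 levels, 7.0 to 7.44.

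Slc16a3 (1368965_at), which carries lactate out of glycolytic fibres, was bright on all arrays and differed little by limb. It ranged from 11.04 to 11.63 on sham left arrays, 11.30 to 12.09 on sham right, 10.79 to 11.66 on SNX left and 11.13 to 12.21 on SNX right. The ranges overlap in every pair of groups. The difference over all rats was 0.23 (SE 0.16, limma adjusted p = 0.429), with 6 of 9 rats higher on the right.

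Higd1a (1370062_at), an inner mitochondrial membrane protein gene linked to survival in low oxygen, was also bright on all arrays. Sham left arrays lay between 12.34 and 12.81, sham right between 12.57 and 12.97, SNX left between 12.28 and 12.88 and SNX right between 12.42 and 12.75. Higd1a was higher in the ligated muscle of 4 of 4 sham rats (0.24, SE 0.13, limma adjusted p = 0.473) and in 3 of 5 SNX rats (0.01, SE 0.12, adjusted p = 0.996). Its second, dimmer probe set (1374105_at) read higher in the ligated muscle of 3 of 4 sham rats (0.33, SE 0.22) and lower in 5 of 5 SNX rats (-0.32, SE 0.19). The difference between those changes was -0.66 (SE 0.29, limma adjusted p = 0.9999), so the 2 probe sets of Higd1a differed in SNX rats in direction but neither passed.

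Car9 and Ak4 were near the floor of the array. Car9 (1393452_at), often used as a tissue marker of hypoxia, read between 2.15 and 2.28 on all 18 arrays, below the array medians, and shows no usable difference between groups. Ak4 (1371824_at), a mitochondrial adenylate kinase, read between 2.18 and 2.28 on 15 arrays. The exceptions were both arrays of sham rat 13, with 2.95 on the left and 2.86 on the right, and the right array of sham rat 17, with 4.29. The sham difference of 0.49 (SE 0.33, limma adjusted p = 0.532) was 0.03 without that array and the right array of SNX rat 49. The second Ak4 probe set (1398285_at) read between 1.93 and 2.01 throughout.

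Kdm3a (1370975_at), which removes methyl groups from histone H3, and Ankrd37 (1373685_at) read lower on the right on average. Kdm3a ranged from 7.44 to 8.33 on sham left arrays, 7.08 to 7.90 on sham right, 7.45 to 7.86 on SNX left and 7.01 to 7.89 on SNX right. The right muscle read lower in 5 of 9 rats, by -0.19 over all rats (SE 0.14, limma adjusted p = 0.462). Ankrd37 ranged from 5.26 to 5.90 on sham left arrays, 5.18 to 5.42 on sham right, 5.43 to 5.99 on SNX left and 4.88 to 6.43 on SNX right. The lower value was on the right in 8 of 9 rats, all but SNX rat 20, with a difference of -0.26 (SE 0.16, limma adjusted p = 0.383). Without SNX rat 20 the Ankrd37 difference passed, at -0.42 (adjusted p = 0.0451). Leaving out the only rat of the other direction favours a call. Without any other single rat it did not pass (adjusted p = 0.411 to 0.602). Groups overlap for both genes.

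**Figure D3:**
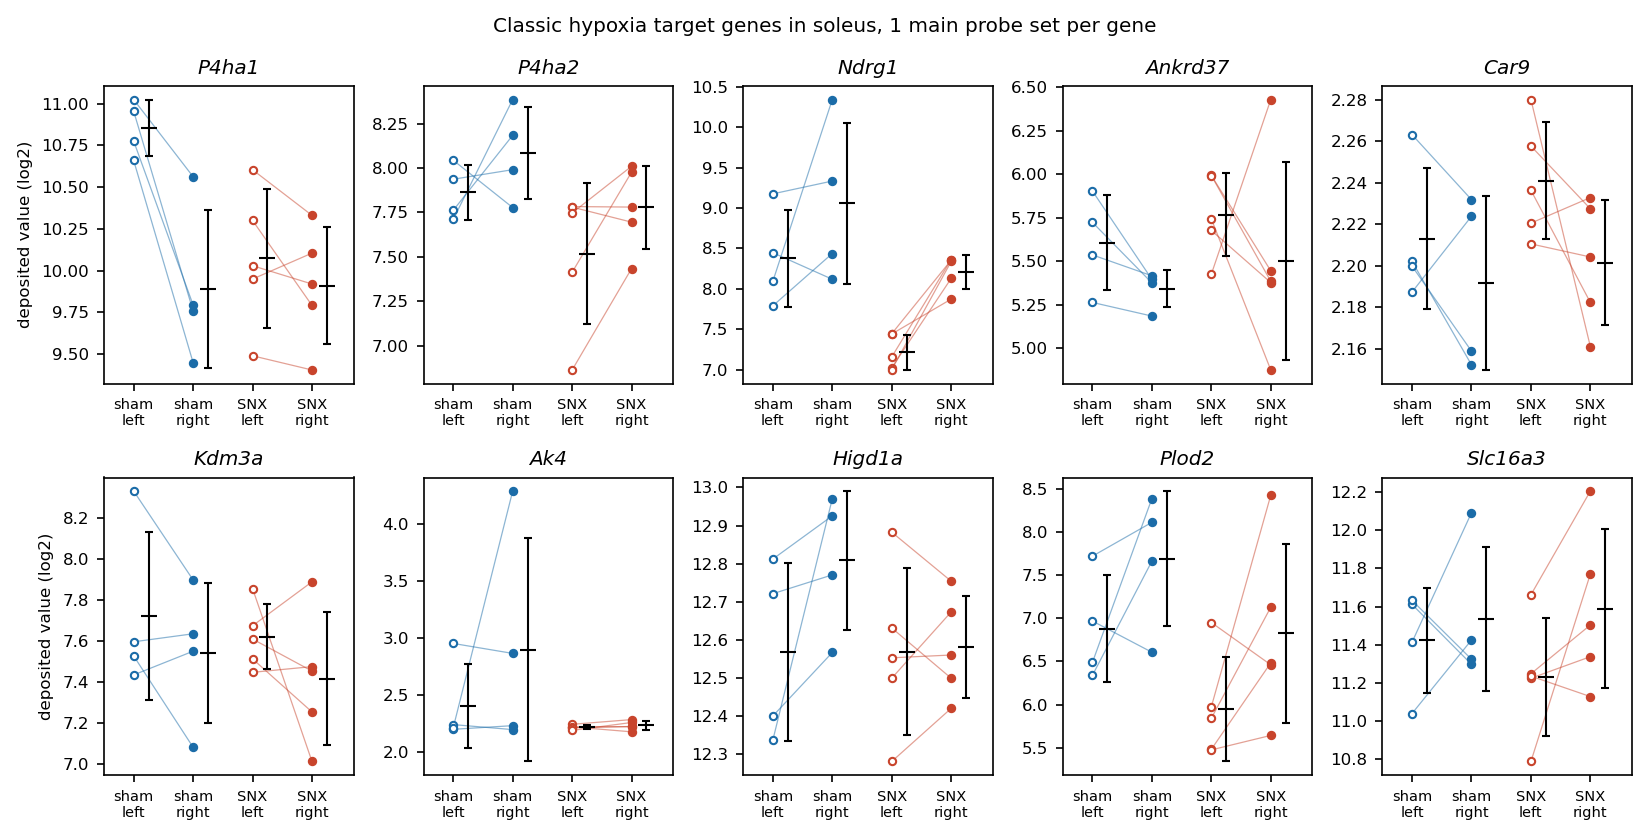
Deposited log2 value of each member's main probe set on every array, by group; lines join the 2 muscles of a rat, and black bars give the group mean ± SD (4 sham and 5 SNX rats). The vertical axes differ between genes. The sham left arrays of P4ha1 (10.66 to 11.03) lie above all other P4ha1 arrays, and the SNX left arrays of Ndrg1 (7.0 to 7.44) lie below all other Ndrg1 arrays.

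The second question was whether kidney disease changed the level of these genes. In the unligated left muscle 7 of 10 members were lower in SNX than in sham rats, with a median of -0.19, while 59.0% of all genes were higher with a median of 0.01. None of the 10 passed limma's test, where 0.00644% of all probe sets did, with or without the block, and 2 had an unadjusted p under 0.05, where 6.25% did. These were P4ha1, at 10.08 ± 0.42 in SNX left against 10.85 ± 0.17 in sham left (SD, n = 5 and 4 rats; limma adjusted p = 0.522), and Ndrg1, at 7.21 ± 0.22 against 8.38 ± 0.60 (adjusted p = 0.534). Their differences were -0.78 (SE 0.24) and -1.16 (SE 0.36). For both genes every SNX left array lay below every sham left array, as was so, in that direction, for 1.47% of all probe sets. Plod2 was lower by -0.93 (SE 0.51, adjusted p = 0.862), with overlapping groups.

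Several marker lists, but not all, were lower in the same SNX left muscles. All 8 slow fibre markers were above 0 there (median 0.20), as were 6 of 9 fast fibre and 3 of 5 neutrophil markers. Of the 10 pericyte and smooth muscle markers 8 were below 0 (median -0.20). No marker of these lists passed. All 14 macrophage markers and all 10 fibroblast markers were below 0 there, with medians of -0.98 and -0.77, and no marker of either list passed. Fibroblast list means ranged from 8.80 to 9.59 on SNX left arrays and from 9.44 to 10.31 on sham left arrays, and the macrophage means given above did not overlap between these groups. Of the 5 Schwann cell markers 4 were below 0, with a median of -1.83 and list means of 5.31 to 5.78 on SNX left arrays against 6.25 to 8.20 on sham left. Of the 6 adipocyte markers 5 were below 0, with a median of -1.48 and list means of 4.98 to 6.10 against 6.13 to 8.20. Neither list overlapped between these groups. Of the 8 endothelial markers 7 were below 0 (median -0.22), and no marker of these 3 lists passed. The part of these cells in the Ndrg1, P4ha1 and Plod2 differences was not tested.

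In the ligated right muscle 4 members were higher and 6 lower in SNX rats, with a median of -0.18, and 0 passed limma's test, where 0% of all probe sets did. The 1 member with an unadjusted p under 0.05, where 9.25% of probe sets had one, was Ndrg1. It was again lower, at 8.21 ± 0.21 against 9.06 ± 1.0 (SD, n = 5 and 4 rats), by -0.85 (SE 0.36, limma adjusted p = 0.498), and without the 2 arrays that stood apart by -0.45. P4ha1 was level there, at 9.91 ± 0.35 against 9.89 ± 0.47, a difference of 0.02 (SE 0.24, adjusted p = 0.970).

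The third question was whether the response to ligation differed between SNX and sham rats. Of 10 members 0 passed limma's test of the SNX minus sham difference in that response, where 0% of all probe sets did, and 1 had an unadjusted p under 0.05, where 1.41% did. This was P4ha1, whose change was 0.80 less negative in SNX rats (SE 0.34, limma adjusted p = 0.9999). The per-rat P4ha1 differences were -1.21, -0.98, -1.20 and -0.46 in sham rats 11, 13, 15 and 17, and 0.16, -0.09, -0.27, -0.51 and -0.11 in SNX rats 12, 18, 20, 37 and 49. Rat 37 thus lay below rat 17 and the kinds of rat overlap. The corresponding Ndrg1 difference was 0.32 (SE 0.52). Slow fibre markers also leaned opposite ways, with 8 of 8 higher on the right in sham rats and 8 of 8 lower in SNX rats, none past the test. These markers move together and the averages rest on few rats. By rat, the mean of the slow fibre list was higher on the right in 2 of 4 sham and 3 of 5 SNX rats, and its mean difference in SNX rats was -0.33, or 0.13 without rat 20. The part of slow fibres in the P4ha1 difference was not tested.

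The members did not respond as 1 block from rat to rat. Right minus left differences of the 8 members with a main probe set above the median brightness were correlated over the 9 rats, giving 28 pairs, of which 11 were positive. An exact permutation test over all pairings, two-sided and adjusted over the 28 pairs by the Benjamini-Hochberg method, called 5 pairs, and 8 pairs had an unadjusted p under 0.05. P4ha2 and Plod2 went together, with r = 0.85 (exact p = 0.0055, adjusted 0.0383; rho = 0.80, exact p = 0.0138, adjusted 0.0536), and r was 0.86 without the 2 rats farthest from the median of P4ha2. The other 4 called pairs were negative.

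Slc16a3 ran opposite to Plod2 and P4ha2 but not to P4ha1, with which r was 0.20 (exact p = 0.591, adjusted 0.789; rho = 0.27, exact p = 0.493, adjusted 0.727), and 0.26 without 2 rats. Its correlation was -0.89 with Plod2 (exact p = 0.0018, adjusted 0.021; rho = -0.92, exact p = 0.0013, adjusted 0.0184) and -0.89 with P4ha2 (exact p = 0.0023, adjusted 0.021; rho = -0.92, exact p = 0.0013, adjusted 0.0184). Without the 2 rats farthest from the median of the first gene these were -0.91 and -0.86. With Higd1a it was -0.77 (exact p = 0.0084, adjusted 0.0471; rho = -0.87, exact p = 0.0045, adjusted 0.0421), and -0.87 without 2 rats. Kdm3a and Plod2 had r = -0.90 (exact p = 0.0011, adjusted 0.021; rho = -0.83, exact p = 0.0083, adjusted 0.0536), and -0.87 without 2 rats. Without rats 17 and 49, whose right arrays stood apart, r was 0.89 for P4ha2 with Plod2, -0.91, -0.90 and -0.86 for Slc16a3 with Plod2, P4ha2 and Higd1a, and -0.77 for Kdm3a with Plod2 (7 rats). The rats are of 2 kinds, and with 4 sham and 5 SNX rats no kind has enough for its own correlation. Centring every array on its median before the differences left 2 called pairs. Levels over the 18 arrays, which share rats and carry no test, are given beside these. There r was -0.38 for Slc16a3 with Plod2, 0.01 with P4ha2 and -0.19 with Higd1a, and -0.88, -0.26 and -0.34 after the group means were removed. For P4ha2 with Plod2 it was 0.69 (0.48 after removal), and for Kdm3a with Plod2 -0.40 (-0.49).

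**Figure D4:**
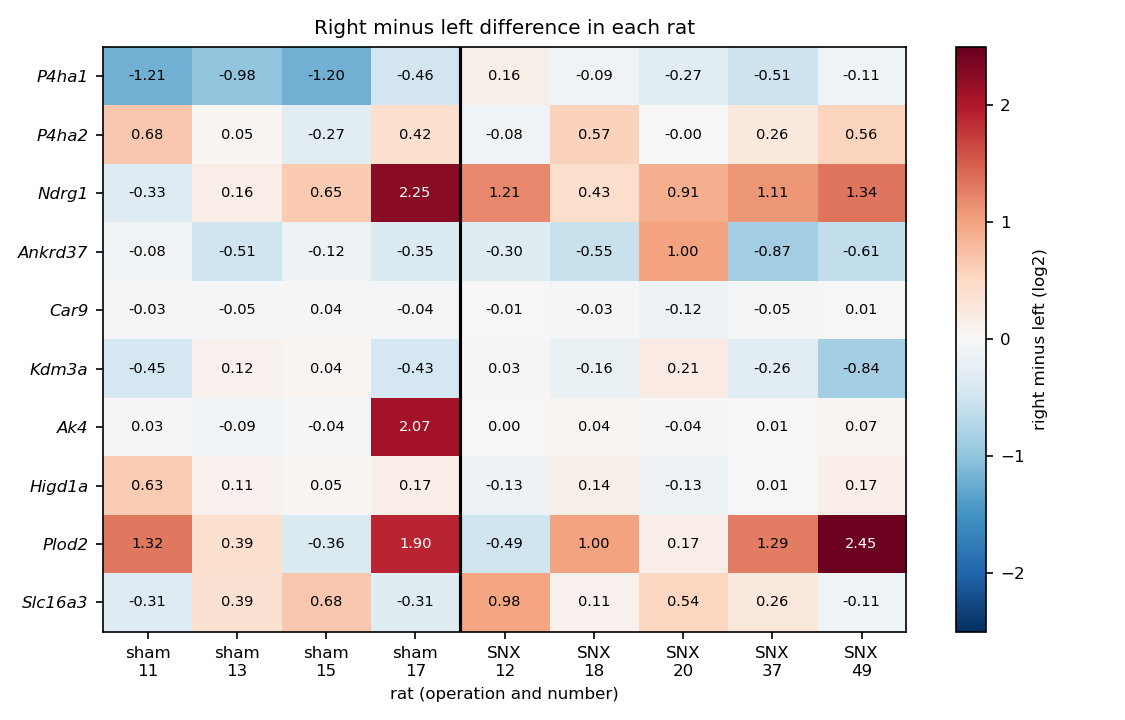
Right minus left log2 difference of each member in each rat (sham rats left of the line, SNX rats right of it), red higher and blue lower in the ligated muscle. P4ha1 is below 0 in 8 of 9 rats and Ndrg1 above 0 in 8 of 9, and in sham rat 15 and SNX rat 12 Slc16a3 is above 0 where Plod2 is below 0.

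As a description, the genes most like each member over the 18 arrays were listed, among 9056 other genes above the median brightness. The arrays share rats and limbs, so the correlations carry no test. P4ha1 was nearest to Ccdc117, Zbed4 and Serf2 (Pearson r = 0.87, 0.82 and 0.80), and P4ha2 to Papola, Wdr83os and Dnaja1 (0.93, 0.93 and 0.89). Plod2 was nearest to Septin2, Septin10 and Eef1a1 (0.97, 0.97 and 0.95). Ndrg1 was nearest to Pea15, to the matrix protease gene Mmp14 and to Cd74, the invariant chain of antigen presenting cells (0.92, 0.90 and 0.90). After the group means were removed, r for these Ndrg1 pairs was 0.79, 0.72 and 0.75. For the genes listed with the other members, the lowest r after removal was 0.70, for Ankrd37 with Gle1. Slc16a3 was nearest to Alg2, Zfp189 and Rabgef1 (0.87, 0.81 and 0.78), Higd1a to Txnrd3, Eif3a and Wwc3 (0.92, 0.91 and 0.91), Kdm3a to Vps41, Igfbp5 and Serf1 (0.86, 0.86 and 0.86) and Ankrd37 to Ints11, Edc3 and Gle1 (0.81, 0.78 and 0.76).

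The members' right against left differences over all rats (median 0.18) can be set beside those of the rest of the pathway. Of 10 HIF subunits and oxygen sensors, 9 were measured, 3 higher and 6 lower on the right over all rats (median -0.01). Hif1a, the oxygen-labile alpha subunit, rose by 0.83 (SE 0.18, limma adjusted p = 0.0282), in 8 of 9 rats. Its call ended without SNX rat 18 or 37 or sham rat 11 or 17 (adjusted p = 0.0612, 0.0944, 0.0867 and 0.113). Egln1, the main prolyl hydroxylase that marks it, passed as lower with the block alone (-0.27, SE 0.09, adjusted p = 0.0392 with the block and 0.116 without). The other extremes of the list were Vhl (0.20), Hif3a (0.01), Egln2 (-0.08) and Egln3 (-0.29), none past the test.

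Of 42 other hypoxia targets, 39 were measured, 23 higher and 16 lower on the right, with a median of 0.09. Without the block 5 passed as higher and 1 as lower, where 2.55% of all probe sets passed in either direction. With it 11 passed as higher and 2 as lower, where 9.05% did. The hexokinase gene Hk2, which traps glucose in the cell, rose by 2.62 (SE 0.30, limma adjusted p = 0.0012), higher in 9 of 9 rats and without overlap between left and right arrays, as was so, in that direction, for 0.2% of all probe sets. It was the only gene of the list to pass in SNX rats alone without the block (2.89, SE 0.40, adjusted p = 0.0173). That call within SNX rats ended without SNX rat 12, 18, 20 or 37 or sham rat 17 (adjusted p = 0.0687, 0.0660, 0.0628, 0.210 and 0.0540). The heme oxygenase gene Hmox1 rose by 2.71 (SE 0.52, adjusted p = 0.0170), the vascular peptide gene Apln by 2.17 (SE 0.41, adjusted p = 0.0146), the vasodilator peptide gene Adm by 1.39 (SE 0.34, adjusted p = 0.0463) and the phosphofructokinase gene Pfkp by 1.06 (SE 0.24, adjusted p = 0.0320). The lipoprotein receptor gene Vldlr fell by 0.17 (SE 0.04, adjusted p = 0.0390).

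With the block the glucose transporter gene Slc2a1 (1.53), the collagen and elastin cross-linking enzyme genes Lox (1.40) and Loxl2 (0.90), the lipid droplet gene Hilpda (0.99), the hexokinase gene Hk1 (0.95) and the angiogenic growth factor gene Vegfa (0.64) also passed as higher. Ccng2 passed as lower (-0.44), and Ddit4 (-0.44) and Mxi1 (-0.41), the other low extremes, did not pass. Within sham rats Hk2 (2.36) and Hmox1 (2.94) passed with the block, and within SNX rats Hk2 (2.89), Apln (2.53) and Vldlr (-0.26) did. Without the right arrays of sham rat 17 and SNX rat 49, the blocked Apln call within SNX rats ended (2.19, limma adjusted p = 0.0549). The other blocked calls within sham or SNX rats held (adjusted p at most 0.0434). Over all rats, Hk2 kept an adjusted p under 0.05 without each rat in turn (at most 0.0142). Apln lost its call without sham rat 11 or 17 (0.0742 and 0.0620), and Hmox1 without sham rat 11 or 17 or SNX rat 37 (0.0579, 0.0502 and 0.0591). Pfkp kept it only without sham rat 15 or SNX rat 20 or 49 (otherwise 0.0507 to 0.0936), Adm only without sham rat 11 (otherwise 0.0613 to 0.119) and Vldlr only without SNX rat 12 (otherwise 0.0511 to 0.127).

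Without the right arrays of sham rat 17 and SNX rat 49, the calls over all rats without the block held for Hk2 (2.42, limma adjusted p = 0.00048), Hmox1 (2.06, 0.0088), Apln (2.05, 0.0278), Pfkp (0.81, 0.0337) and Hif1a (0.68, 0.0454). They ended for Adm (1.09, adjusted p = 0.102) and Vldlr (-0.13, 0.0794). In the blocked fit without those arrays Adm (1.09, limma adjusted p = 0.0380) and Vldlr (-0.14, 0.0291) did pass. Of the genes called with the block alone, Slc2a1 (0.95, adjusted p = 0.0272), Hilpda (0.71, 0.0451), Hk1 (0.60, 0.0127) and Ccng2 (-0.40, 0.0206) held in the blocked fit without those arrays. Vegfa (0.67, 0.0539), Lox (1.03, 0.0597), Loxl2 (0.72, 0.110) and Egln1 (-0.18, 0.0903) did not. The brightest probe set sets some of these values. With the mean of all probe sets of a gene, in the fit without the block, Apln was 1.71 (limma adjusted p = 0.0145) and Vldlr -0.30 (0.0383). Lox passed in that fit (1.48, 0.0381), while Hk1 (0.47, 0.0642) and Loxl2 (0.55, 0.134) did not. By their main probe sets Lox, Hk1 and Loxl2 had passed with the block alone.

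**Figure D5:**
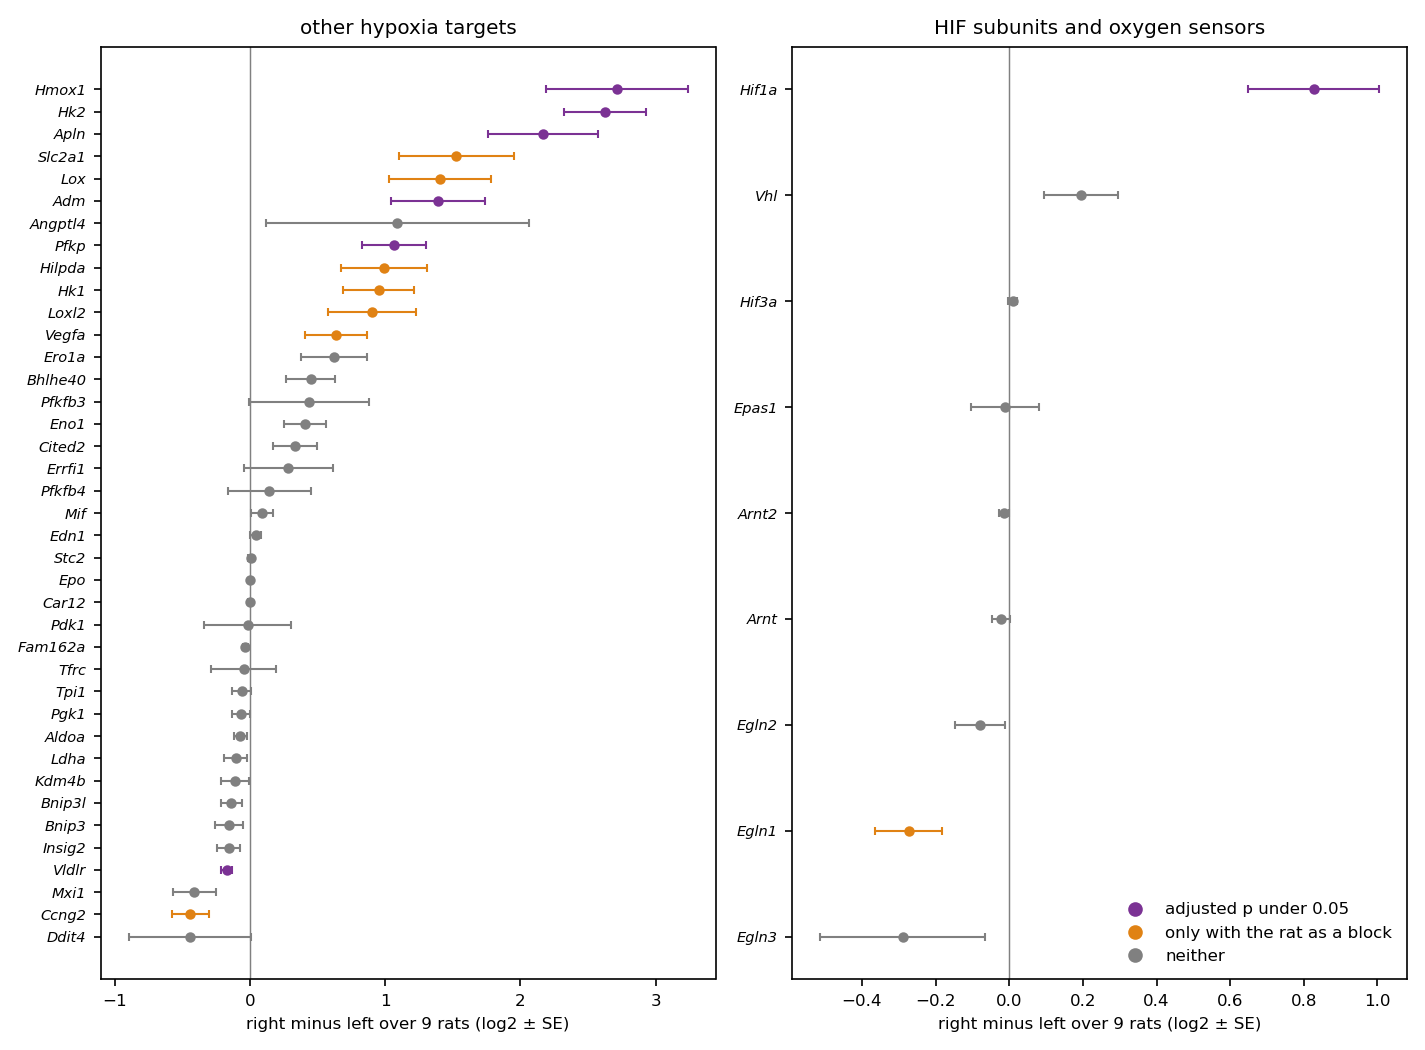
Right minus left log2 difference over 9 rats (± SE of the unblocked limma fit) for 39 other hypoxia targets (left) and 9 HIF subunits and oxygen sensors (right), purple where the adjusted p was under 0.05, orange where that held with the rat as a block alone and grey where neither held. Hk2, Hmox1 and Apln lie highest of the targets at 2.62, 2.71 and 2.17, and Hif1a lies highest of the subunits and sensors at 0.83.

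Partners and relatives of the members give a last comparison, with 21 of 23 measured, 12 higher and 9 lower on the right over all rats (median 0.04). Bsg, the chaperone that brings lactate transporters such as the Slc16a3 product to the membrane, rose by 0.28 (SE 0.06, limma adjusted p = 0.0253), in 8 of 9 rats, a call kept only without sham rat 17 or SNX rat 20 (otherwise 0.0521 to 0.0783). In sham rats alone it passed with the block (0.35, adjusted p = 0.0424). Over all rats with the block, P4hb, the shared beta subunit that the P4ha1 and P4ha2 products need, also passed as higher (0.35, SE 0.12, adjusted p = 0.0416), as did the lysyl hydroxylase gene Plod3 (0.40, adjusted p = 0.0388) and the prolyl 3-hydroxylase gene P3h1 (0.12, adjusted p = 0.0450). P4ha1 thus passed as lower with the block where its partner P4hb passed as higher. Without the right arrays of sham rat 17 and SNX rat 49, Bsg kept its call (0.32, adjusted p = 0.0151), and with the block P4hb (0.22, 0.0750), Plod3 (0.25, 0.0877) and P3h1 (0.08, 0.142) lost theirs. Ndrg4 (1.23), P4ha3 (0.44) and Slc16a1 (0.41) had the highest differences and Car4 (-0.39), Ak3 (-0.23) and Ndrg3 (-0.17) the lowest, none of them past the test.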

How the data were processed

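Per the labels' protocols, biotin-labelled cRNA from 2 micrograms of soleus RNA was hybridised to 1 Affymetrix array per muscle (18 arrays). The values deposited by the authors are log2 expression values per probe set, already normalized. The tools given by the submitters' processing notes, without version or role, are RMA, GCRMA and Partek, and RMA and GCRMA treat dim probe sets differently. Of 31099 probe sets, 57 controls were left out. Symbols came from the platform annotation and were updated to RefSeq (GRCr8), which matched 20758 of the 20826 probe sets with 1 gene. The 436 with several genes and the 9780 with none were tested but not named.

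One mean per group was fitted to all 18 arrays with limma 3.58.1 in R 4.3.3 (lmFit and eBayes, 14 residual and 1.02 prior degrees of freedom), two-sided, with Benjamini-Hochberg adjustment over 31042 probe sets and a threshold of 0.05. A gene past it is said to have passed or been called. Both muscles came from 1 rat, so fits that add the rat, as a random block (by duplicateCorrelation, 0.297) or a fixed term, are given where they change a call. Deviations of a rat's arrays from their group means correlated above 0.1 in 7 of 9 rats, with 0.04 in sham rat 15 and -0.0009 in SNX rat 49. By these deviations, only the left arrays of sham rat 13 and SNX rats 18, 20 and 37 were most like their own right array. Pair correlations, promoter searches and plots used Python 3.11.15. The fit was tested on simulated data. Alternatives were quantile normalization again, array centring, leaving out dim probe sets, the mean of a gene's probe sets, trend and robust settings, only the compared groups, and each rat left out. The blocked fits with a rat left out were added after the data were seen. The 2 outlying right arrays were picked from the data themselves. All fits without these arrays, with or without the block, therefore also came after the data were seen. The same holds for the pair correlations without the rats of these arrays. The members and all gene and marker lists were chosen with earlier results of these data known. Besides the members, the text names list genes called in any comparison, with or without the block, the 3 highest and 3 lowest of each pathway list over all rats, and the 3 genes most like each bright member. Arrays give no depth, and their number limits the precision.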

Additional observations from a re-analysis of the deposited data

Results flagged for a closer look

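In 40 sets of 4 or 5 arrays (each member's main probe set in each group), 2 held an array far from the others by Dixon's criterion, and chance gives about 1 in 20. Ak4 read 2.95 in the sham left muscle of rat 13, against 2.20 to 2.24 in the other 3 sham left muscles, and the right muscle of the same rat read 2.86. Slc16a3 read 12.09 in the sham right muscle of rat 15, against 11.30 to 11.42 in the other 3 sham right muscles.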

How the results depend on the processing

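The number of members past the threshold depended on the pairing. With the rat as a replicate block 1 member passed in sham rats (P4ha1) and 2 over all rats (P4ha1 and Ndrg1), and with the rat as a fixed block 1 and 1 (P4ha1). The block changed no other count of members past the adjusted threshold. It took those with an unadjusted p under 0.05 from 1 to 2 in sham rats and from 3 to 4 over all rats. With the block, 7.73% of all probe sets had such a p as higher and 11.7% as lower in sham rats. Over all rats these shares were 10.4% and 17.2%. Leaving out dim probe sets, which tests fewer, called the same 2 members over all rats without the block. That setting also called more probe sets there, 1796 of the fewer tested against 791 of 31042. Leaving out each rat in turn called 0 to 1 members over all rats without the block, the 1 being Ankrd37 without SNX rat 20. With the block, leaving out each rat gave 0 to 1 in sham rats and 0 to 3 over all rats, and leaving out the right arrays of sham rat 17 and SNX rat 49 gave 1 over all rats. Centring left 2 of 5 called member pairs. Probe sets called, 46 in sham rats, 14 in SNX rats and 791 over all rats, became 559, 99 and 2808 with the random block, 117, 6 and 1090 with the fixed block, 145, 33 and 1796 without dim probe sets, and 0 to 284, 0 to 8 and 153 to 1007 without single rats. The causes were not tested.

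Of 1028 alternative values for 60 member differences, 965 kept their direction and call, 8 gained the call and 55 turned direction, in 19 differences, none of them called. No rescaling moved the median of all genes by over 0.1. After quantile normalization the Car9 difference between SNX and sham right muscle was -0.0150 and the Ankrd37 difference of the changes 0.0093. After centring, Car9 there was -0.0062, Higd1a -0.0041 by limb within SNX rats and -0.013 for SNX against sham left, Ak4 -0.000302 for that same SNX difference by limb and Hif3a -0.0063 over all rats. The mean of its probe sets put Higd1a in SNX rats at -0.156. Without the right arrays of sham rat 17 and SNX rat 49, Higd1a in SNX rats was -0.0109, Car9 and Kdm3a in SNX against sham right muscle -0.0089 and 0.095, and the difference of the changes 0.040 for Ankrd37, 0.198 for Kdm3a and -0.097 for Plod2.

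Leaving out each rat in turn gave right against left ranges of -0.033 to 0.687 (Ak4) and -0.079 to 0.252 (Slc16a3) in sham rats, -0.028 to 0.048 (Higd1a) in SNX rats, and -0.0086 to 0.352 (Ak4) and -0.00011 to 0.0156 (Hif3a) over all rats. For SNX against sham left it gave -0.199 to 0.101 (Kdm3a) and -0.076 to 0.083 (Higd1a), and for the right muscle -0.128 to 0.243 (P4ha1), -0.073 to 0.316 (Ankrd37), -0.0033 to 0.0232 (Car9) and -0.0995 to 0.241 (Slc16a3). For the difference of the changes it gave -0.122 to 0.192 (P4ha2), -0.020 to 0.840 (Ndrg1), -0.317 to 0.150 (Ankrd37), -0.031 to 0.0018 (Car9), -0.127 to 0.138 (Kdm3a), -0.672 to 0.049 (Ak4) and -0.321 to 0.432 (Plod2). Car9, most Ak4 values and the second probe sets of P4ha2, Ndrg1 and Ak4 lay below the array medians, so signal over background limits them.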
